A study of Sus scrofa with 6 samples.

Results

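The genes described here carry out or control the breakdown of fatty acids in mitochondria and peroxisomes. They are a list of 37 pig symbols, of which 33 have a row among the 22844 rows of each library table. The symbols ECI1, SCP2, AMACR and ACOT2 matched no row and are not analysed here. Libraries were made from total RNA of subcutaneous fat of Duroc, Landrace and Yorkshire crossbred pigs. The control group holds 3 libraries of pigs on a control diet, and the resveratrol group holds 3 libraries of pigs whose diet contained 400 mg/kg resveratrol, a plant polyphenol. The labels give no age, sex or length of feeding. They do not state whether each library is from its own animal, and the p-values therefore rest on a spread between libraries that may be technical.

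Fatty acids are burned in cycles that each shorten the chain. Long chains enter mitochondria as carnitine esters, made by CPT1 on the outer membrane, carried across the inner membrane by SLC25A20 and turned back into coenzyme A esters by CPT2. Inside, acyl-CoA dehydrogenases, hydratases, hydroxyacyl-CoA dehydrogenases and thiolases act in turn, and the electrons pass through the electron transfer flavoprotein to the respiratory chain. Peroxisomes shorten very long and branched chains with their own enzymes and pass the products on. White fat mainly stores and releases fatty acids, and its capacity to burn them is small beside that of muscle, liver or brown fat.

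All 33 genes were above the filter on low values (a mean of at least 0.5 TPM, the abundance of a transcript relative to its length and the library, over the 6 libraries). None of them passed an adjusted p under 0.05 in edgeR's quasi-likelihood test, the share over all 14908 tested rows being 0% as well. The smallest adjusted p among them was 0.733. The signs of the fitted differences were uneven: 28 of 33 log2 fold changes (resveratrol against control, from TMM-scaled counts) were positive, against 48.8% of all tested rows, and their median was 0.30 against -0.0075 for all rows. PPARA, among the positive, and CRAT, among the negative, both rounded to 0.00. By mean TPM, 24 of 33 were higher in resveratrol, against 35.4% of all rows. The 18 genes of the mitochondrial spiral were all positive with a median of 0.34, while the 5 genes of the carnitine shuttle had a median of 0.00 and the 8 peroxisomal genes 0.10. Genes of the list are not independent of each other, so these counts describe the list and carry no test. Relative to 8 adipocyte markers, with their mean log2 CPM subtracted in each library, the median of the 33 was 0.05 and 19 were positive, a comparison added after the data were seen. By class it was 0.10 for the spiral (13 of 18 positive), -0.23 for the carnitine shuttle and -0.12 for the peroxisomal genes.

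At an unadjusted p under 0.05 in edgeR, 3 of the 33 genes were higher in resveratrol, where 2.21% of all tested rows were. These were SLC25A20, ACAA2 and ACADM. None was lower, where 4.32% of all rows were. DESeq2 on the same counts called 0.268% of all rows at an adjusted p under 0.05, and 0 of the 33. In TMM-scaled CPM, the reads of a gene scaled to a common library total, the libraries of the diets did not overlap for 8 members in the higher direction (5.67% of all rows) and for 1, CPT1A, in the lower direction (6.97% of all rows). In TPM, which is not scaled by TMM, the groups separated upward for SLC25A20 and HADHB alone among the members, and for 4.11% of all rows.

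**Figure D1:**
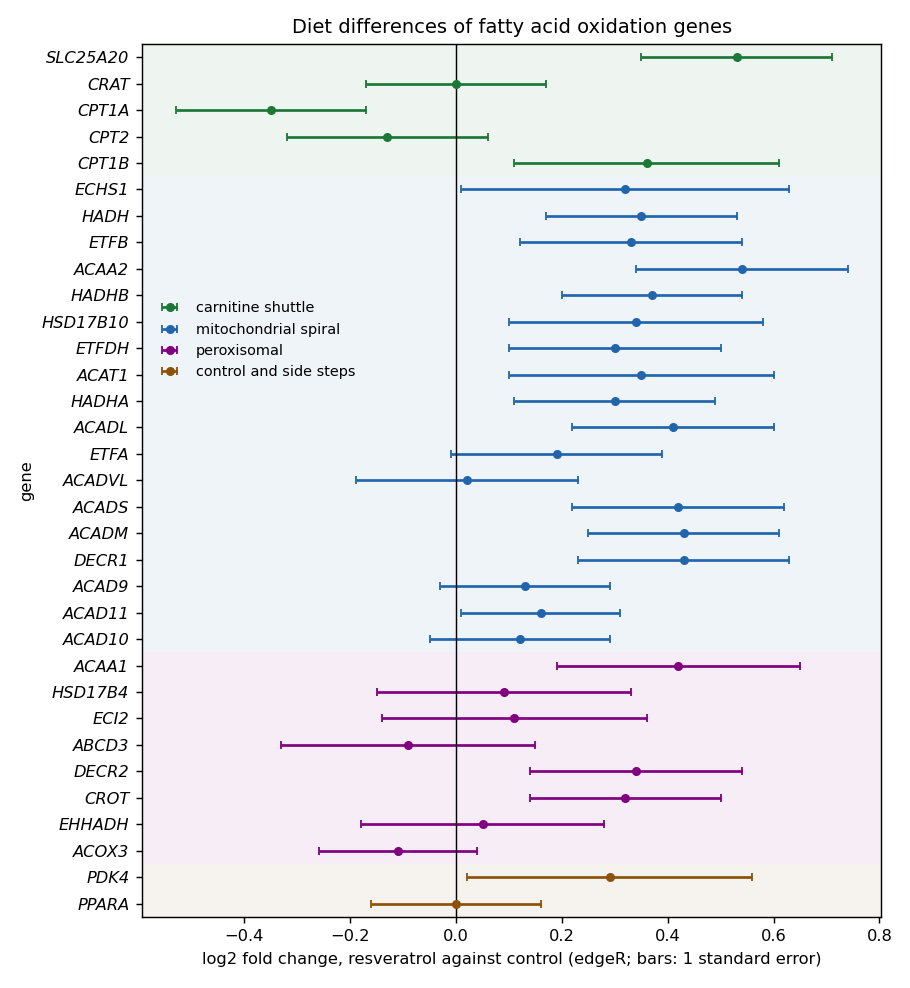
Fitted log2 fold change (resveratrol against control, edgeR) of each of the 33 genes, with bars of 1 standard error and colours for the 4 classes. The 18 mitochondrial spiral genes lie between 0.02 and 0.54, and CPT1A has the lowest value, -0.35.

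Depth ran from 16251536 reads in control 2 to 37943877 in resveratrol 2. The thinnest member in any library was CPT1B with 252 reads in control 2, and ACAA1 reached 54948 reads in resveratrol 3. Tendon and cartilage markers (TNMD, COMP, COL2A1, SCX and ACAN) summed to 101, 7.50 and 24.7 TPM in control 1, 2 and 3 and to 3.98, 5.13 and 3.18 TPM in resveratrol 1, 2 and 3, without overlap. All 5 were fitted lower in resveratrol (7627 of all 14908 rows were), 4 of them at an unadjusted p under 0.05 in edgeR (4.32% of all rows). COL2A1 had an adjusted p of 0.00154 in DESeq2 and 0.721 in edgeR. Macrophage markers summed to 468 to 547 TPM under the control diet and 591 to 854 TPM under resveratrol, without overlap and with all 10 fitted higher (48.8% of all rows). Of these 10, 5 were higher at an unadjusted p under 0.05 in edgeR (2.21% of all rows). In CPM 4 of the 10 were higher without overlap (5.67% of all rows). Endothelial markers summed to 252, 324 and 290 TPM against 244, 258 and 236 TPM. PECAM1, ESAM and CDH5 were lower in CPM without overlap, as 3 of 6 tested (6.97% of all rows). TEK was higher in CPM without overlap, as 1 of 6 (5.67% of all rows), with a log2 fold change of 0.40. By fitted sign 2 of the 6 were higher and 4 lower. Fibroblast and progenitor markers summed to 11840, 5700 and 6536 TPM against 5668, 7443 and 5227 TPM. Of these 7 markers 4 were fitted higher and 3 lower, with a median log2 fold change of 0.15. COL1A1 was the 1 of 7 lower at an unadjusted p under 0.05 in edgeR (4.32% of all rows), with a log2 fold change of -1.40 (unadjusted p = 0.0243). Markers of skeletal muscle, a tissue rich in these enzymes, were near 0: the 6 of 12 with a row summed to between 1.31 and 3.94 TPM, and ACTA1 had 0 to 30 reads. The adipocyte markers ADIPOQ, PLIN1, PLIN4, LIPE, FABP4, CIDEC, LPL and GPD1 were abundant, at 19031 TPM or more in sum in every library. The part of RNA from tendon, cartilage, macrophages, endothelium or fibroblasts in the results below was not tested.

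The library with the highest value was often the same. Resveratrol 3 held the highest CPM of 23 of the 33 genes, and control 1 held the lowest of 15 and control 2 of 8. The median deviation from each gene's own mean, on the log2(CPM + 1) scale, was -0.21, -0.17 and 0.07 in control 1, 2 and 3 and -0.07, 0.05 and 0.38 in resveratrol 1, 2 and 3. Control 3 thus lay above resveratrol 1 and 2 by this measure. Without resveratrol 3, the median log2 fold change of the 33 genes was 0.15, 24 were positive, and the 1 member under an unadjusted p of 0.05 was then CPT1B, not any of the 3 above. Without control 1 the number positive was also 24.

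**Figure D2:**
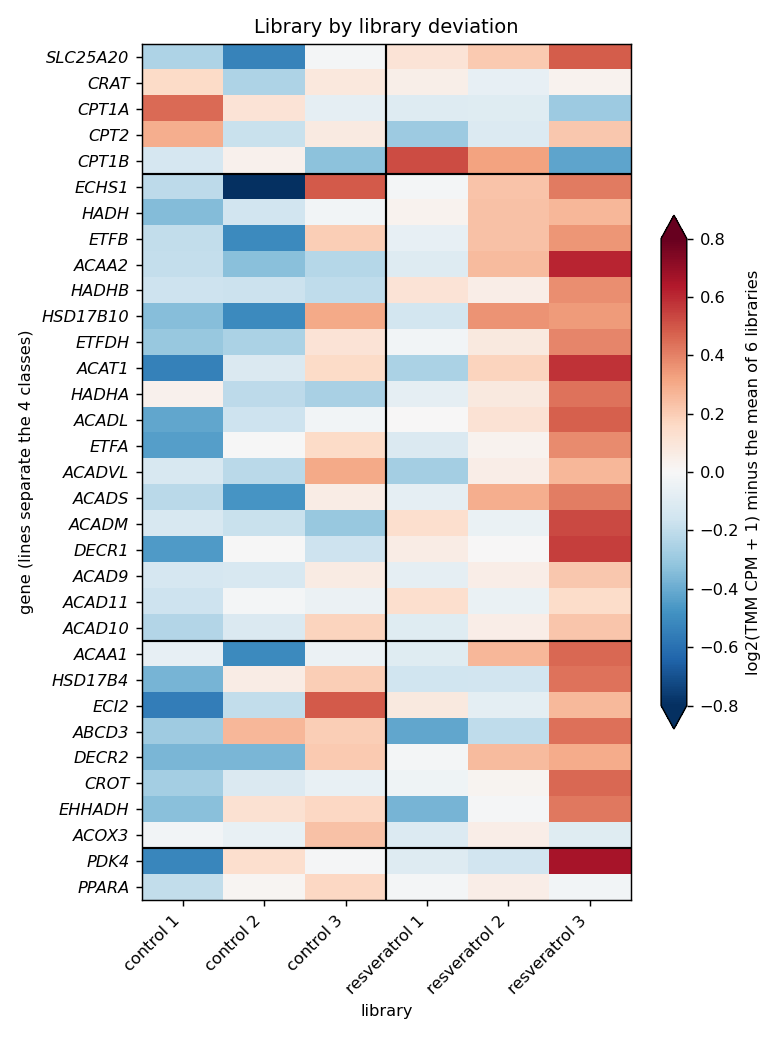
Deviation of each gene (rows, grouped by class) in each library (columns) from its mean over the 6 libraries, in log2(TMM CPM + 1); red is above and blue below. Resveratrol 3 is red in 29 of 33 rows, and control 1 is blue in 29, 4 of the 33 lying above their mean there.

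In TPM the sum of the 8 adipocyte markers was also lowest in control 1 and highest in resveratrol 3. FABP4 was the largest part of the sum, at 11828 TPM in control 1 and 19979 TPM in resveratrol 3. Of the 8, FABP4 alone was highest in resveratrol 3, and PLIN4 was highest in control 1. The markers summed to 19031, 25349 and 25696 TPM in control 1, 2 and 3 and to 22799, 24932 and 28438 TPM in resveratrol 1, 2 and 3. By fitted sign 7 of 8 were higher (48.8% of all rows), with a median log2 fold change of 0.18. In mean log2 CPM they differed by 0.24 between the diets, and control 2 was the lowest. The values of the members relative to these markers are those given with the counts above. In tissue RNA, fewer cells of a type and less RNA per cell cannot be told apart, so a level per adipocyte is not measured here. The spiral genes summed to 1547, 1753 and 2059 TPM in control and 1875, 2195 and 2321 TPM in resveratrol, and the groups overlapped. The peroxisomal genes summed to 791, 867 and 925 TPM against 847, 1029 and 1128 TPM, again with overlap. The carnitine shuttle genes summed to 161, 155 and 157 TPM against 169, 171 and 172 TPM. Of these 3 class sums, that last one did not overlap between the diets, and SLC25A20 averaged 57.2 ± 5.67 against 78.6 ± 6.71 TPM. Of the 5 shuttle genes, 2 had a higher mean TPM in resveratrol, SLC25A20 and CPT1B. CPT1A, CPT2 and CRAT had a lower one.

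**Figure D3:**
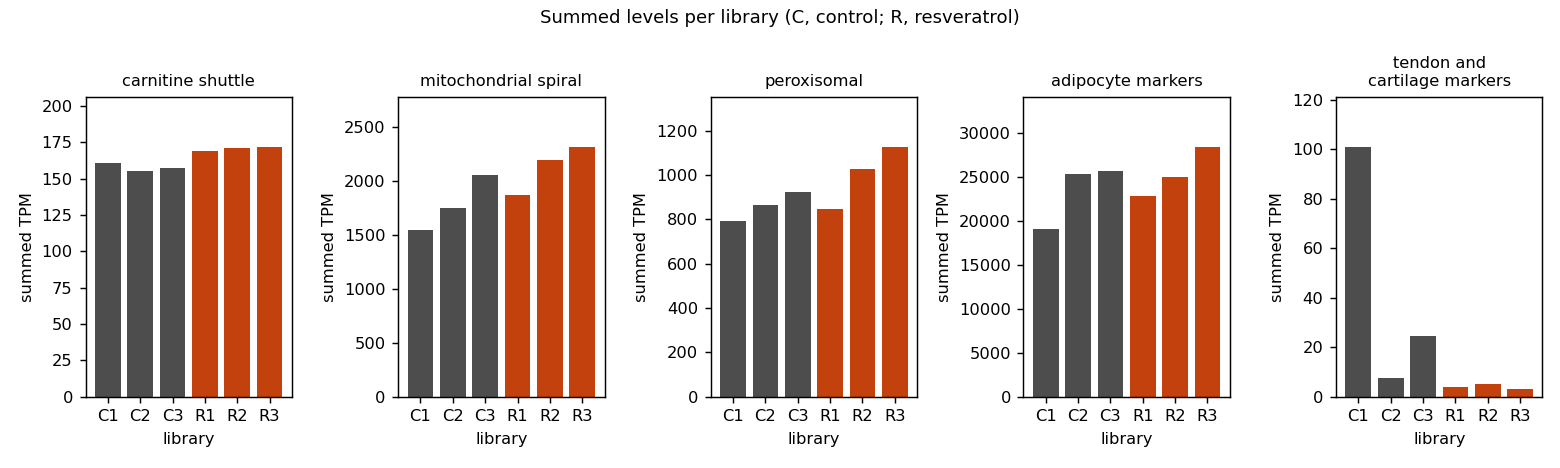
Summed TPM of the carnitine shuttle, mitochondrial spiral and peroxisomal genes and of the adipocyte and the tendon and cartilage markers in each library (C1 to C3 control, R1 to R3 resveratrol). Every axis starts at 0; adipocyte markers run from 19031 in control 1 to 28438 in resveratrol 3, the libraries that also bound the spiral sums of 1547 and 2321.

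Levels spanned a wide range. By mean TPM over the 6 libraries, the most abundant members were ACAA1, PDK4, ECHS1, HADH and HSD17B4, and the least abundant was CPT1B. ACAA1, the thiolase that ends the peroxisomal cycle, averaged 538 ± 37.1 TPM in control (SD, n = 3 per group throughout). ACAA2, a mitochondrial thiolase, averaged 101 ± 6.46 TPM there. The ratio of their TPM values ran from 4.56 in control 2 to 5.85 in control 3, so the peroxisomal thiolase was the more abundant in every library.

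**Figure D4:**
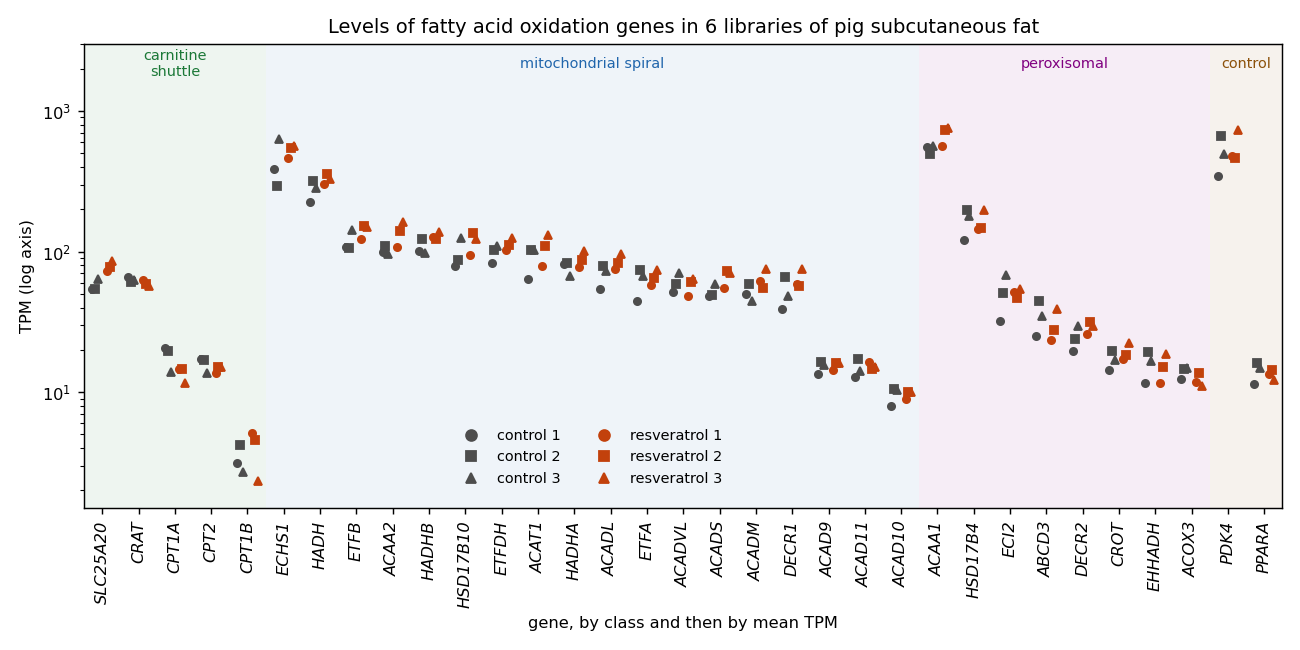
TPM (log axis) of each of the 33 genes in each library, grouped by class and ordered by mean TPM within it; grey is control, orange is resveratrol, and the marker shape gives the library number. ACAA1 reaches 755 TPM and CPT1B stays at or under 5.15 TPM.

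Among the carnitine shuttle genes, the transporter and CPT1B had positive fold changes and CPT1A a negative one. SLC25A20 (ENSSSCG00000011366.3), which exchanges acylcarnitine for carnitine across the inner membrane, stood at 53.9, 54.0 and 63.8 TPM in control 1, 2 and 3 and at 72.2, 78.1 and 85.5 TPM in resveratrol 1, 2 and 3. All resveratrol libraries lay above all control libraries. Its log2 fold change was 0.53 (SE 0.18, edgeR unadjusted p = 0.0159, adjusted p = 0.733), the smallest p among the members. The fold change stayed between 0.41 and 0.67 when each library was left out in turn. The unadjusted p was 0.0751 without resveratrol 3.

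CPT1A (ENSSSCG00000012880.4), the liver form of the rate-limiting entry enzyme, stood at 20.5, 19.6 and 14.0 TPM under the control diet and at 14.6, 14.5 and 11.6 TPM under resveratrol. Control 3 lay among the resveratrol libraries in TPM. In CPM the groups just separated, 81.6, 64.0 and 56.2 against 55.1, 55.3 and 48.2, and the log2 fold change was -0.35 (SE 0.18, unadjusted p = 0.0770). Without control 3 it was -0.46 with an unadjusted p of 0.0302, and without control 1 it was -0.19 with an unadjusted p of 0.319. The unadjusted p in edgeR was 0.0641 without control 2 and ran from 0.115 to 0.224 with a resveratrol library left out.

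CPT1B (ENSSSCG00000022364.2), the muscle form, stood at 3.12, 4.23 and 2.70 TPM under the control diet and at 5.15, 4.53 and 2.35 TPM under resveratrol. The highest and the lowest of the 6 values were both resveratrol libraries. Its log2 fold change was 0.36 (SE 0.25, unadjusted p = 0.192), and without resveratrol 3 it was 0.61 with an unadjusted p of 0.0175. Without resveratrol 1 it was 0.15 (edgeR unadjusted p = 0.593), and without control 3 it was 0.26 (unadjusted p = 0.381). The ratio of CPT1A to CPT1B in TPM was 6.58, 4.62 and 5.17 in control and 2.83, 3.20 and 4.95 in resveratrol, so the liver form was the more abundant in every library and the groups overlapped. These are paralogs, and how reads shared between such genes were counted is not given in the sources used here.

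CPT2 (ENSSSCG00000003851.3), the inner membrane transferase, stood at 17.3, 16.9 and 13.7 TPM under the control diet and at 13.6, 15.1 and 15.2 TPM under resveratrol, with a log2 fold change of -0.13 (SE 0.19, unadjusted p = 0.517). Its reads per TPM, set against the median row of each library, ranged from 1.43 in resveratrol 1 to 1.80 in control 3. For SLC25A20 the same quantity ran only from 0.674 to 0.681. The effective length behind the TPM of CPT2 therefore differed between libraries, and its TPM and counts need not rank the libraries alike. CRAT, the carnitine acetyltransferase, averaged 63.3 ± 2.76 against 59.7 ± 3.29 TPM and had a log2 fold change of 0.00 (SE 0.17).

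**Figure D5:**
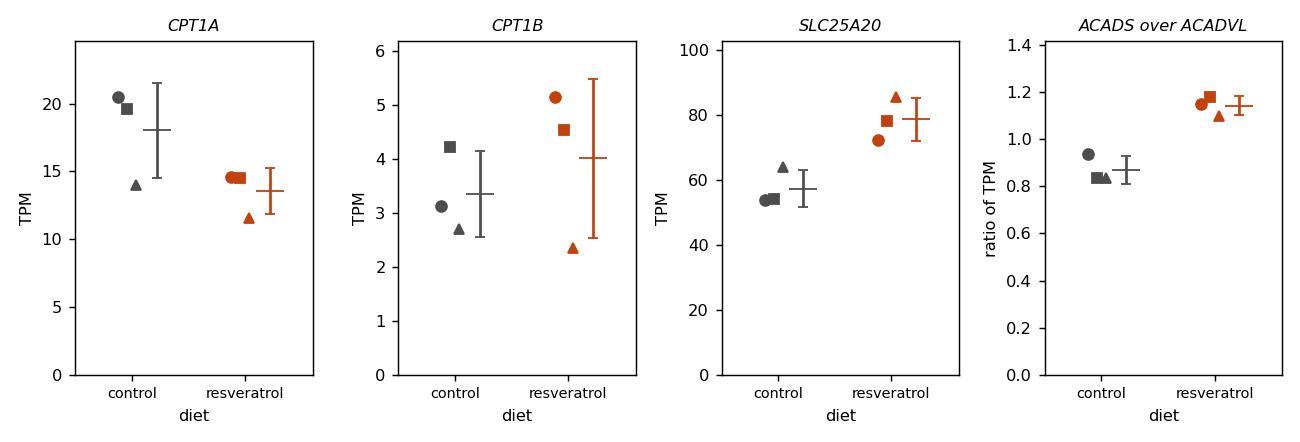
TPM of CPT1A, CPT1B and SLC25A20 and the TPM ratio of ACADS to ACADVL per library (points; the marker shape gives the library number), with mean and SD beside them; all axes start at 0. SLC25A20 and the ratio separate the diets, with the highest control values at 63.8 TPM and 0.936 and the lowest resveratrol values at 72.2 TPM and 1.10.

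The acyl-CoA dehydrogenases, which start each turn, divide the chain lengths between them. ACADM (ENSSSCG00000003776.3), for medium chains, stood at 50.1, 59.0 and 44.4 TPM under the control diet and at 62.2, 55.1 and 74.8 TPM under resveratrol. Control 2 exceeded resveratrol 2 in TPM, and in CPM the groups did not overlap. Its log2 fold change was 0.43 (SE 0.18, unadjusted p = 0.0405, adjusted p = 0.733), and the unadjusted p was 0.192 without resveratrol 3, 0.0994 without control 3, 0.0582 without resveratrol 1 and 0.0539 without control 1.

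ACADL (ENSSSCG00000016156.3), for long chains, stood at 54.5, 78.9 and 72.2 TPM under the control diet and at 75.5, 82.5 and 96.0 TPM under resveratrol. Control 1 was the low library and resveratrol 3 the high one, as for the members at large. The log2 fold change was 0.41 (SE 0.19, unadjusted p = 0.0550). ACADS, for short chains, averaged 52.4 ± 5.70 against 66.1 ± 9.24 TPM, with a log2 fold change of 0.42 (SE 0.20, unadjusted p = 0.0564).

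ACADVL (ENSSSCG00000017947.3), the very-long-chain dehydrogenase bound to the inner membrane, did not share this pattern of values. It stood at 52.0, 59.1 and 70.6 TPM under the control diet and at 48.2, 61.2 and 64.1 TPM under resveratrol, with a log2 fold change of 0.02 (SE 0.21, unadjusted p = 0.908). The fitted sign turned in TPM and without control 1, control 2 or resveratrol 3. The TPM ratio of ACADS to ACADVL was 0.936, 0.835 and 0.835 in control and 1.15, 1.18 and 1.10 in resveratrol, without overlap. This ratio was 1 of 9 pairs computed after the levels had been seen, and it has no test. ACAD9, which also serves the assembly of respiratory complex I, ACAD10 and ACAD11 had log2 fold changes of 0.13, 0.12 and 0.16, with unadjusted p-values of 0.407, 0.510 and 0.309.

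The following steps for long chains are done by the trifunctional protein, a complex of HADHA and HADHB. HADHA (ENSSSCG00000008571.3) stood at 81.5, 83.0 and 66.5 TPM under the control diet and at 77.5, 87.2 and 101 TPM under resveratrol, with overlap and a log2 fold change of 0.30 (SE 0.19, unadjusted p = 0.151). HADHB (ENSSSCG00000008569.3) measured 101, 122 and 98.5 TPM against 126, 122 and 137 TPM, with a log2 fold change of 0.37 (SE 0.17, unadjusted p = 0.0550). Every resveratrol library lay above every control library for HADHB, by a narrow margin between control 2 and resveratrol 2. The ratio of HADHB to HADHA was 1.40 ± 0.138 in control and 1.46 ± 0.139 in resveratrol, a difference smaller than the spread.

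ACAA2 (ENSSSCG00000004510.3), a mitochondrial thiolase, had the largest fitted difference of the members. It stood at 98.6, 109 and 96.6 TPM under the control diet and at 108, 141 and 163 TPM under resveratrol. Resveratrol 1 lay between control 1 and control 2 in TPM, and the other resveratrol libraries lay above all controls. The log2 fold change was 0.54 (SE 0.20, unadjusted p = 0.0244, adjusted p = 0.733), with 0.35 and an unadjusted p of 0.125 without resveratrol 3. Without resveratrol 2 the unadjusted p was 0.0537.

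ECHS1 and HADH had the highest levels of the spiral. ECHS1, the enoyl-CoA hydratase, stood at 386, 294 and 632 TPM under the control diet and at 462, 550 and 568 TPM under resveratrol, so the controls held both extremes. Its log2 fold change of 0.32 (SE 0.31, unadjusted p = 0.335) was about its own standard error. Without control 3 it was 0.73 with an unadjusted p of 0.0178 in edgeR. Without control 2 it was 0.04 (unadjusted p = 0.883), and without resveratrol 3 it was 0.21 (unadjusted p = 0.586). HADH, the hydroxyacyl-CoA dehydrogenase, averaged 275 ± 46.5 against 329 ± 24.7 TPM (log2 fold change 0.35, SE 0.18, unadjusted p = 0.0803). HSD17B10, a dehydrogenase of short branched chains, averaged 96.8 ± 24.6 against 117 ± 20.8 TPM, and ACAT1, the acetoacetyl-CoA thiolase, 89.8 ± 22.8 against 106 ± 25.7 TPM. The unadjusted p-values of the last pair were 0.179 and 0.188. DECR1, the dienoyl-CoA reductase that unsaturated chains require, averaged 51.1 ± 13.5 against 63.4 ± 10.4 TPM, with a log2 fold change of 0.43 (SE 0.20, unadjusted p = 0.0569).

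Electrons from the dehydrogenases pass through the flavoprotein subunits ETFA and ETFB to ETFDH, which reduces ubiquinone. Their log2 fold changes were 0.19 (SE 0.20), 0.33 (SE 0.21) and 0.30 (SE 0.20), with unadjusted p-values of 0.367, 0.149 and 0.158. Their group values overlapped in every case. The subunits were not measured at equal levels: ETFB averaged 118 ± 20.4 TPM and ETFA 61.7 ± 15.4 TPM in control. The ratio of ETFB to ETFA ranged from 1.44 in control 2 to 2.41 in control 1, within 1 group.

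The peroxisomal genes were mixed. ABCD3, which imports acyl-CoA into peroxisomes, averaged 34.9 ± 9.78 TPM under the control diet and 30.0 ± 7.96 TPM under resveratrol (log2 fold change -0.09, SE 0.24). ACOX3, an oxidase of branched chains, stood at 12.4, 14.6 and 14.8 TPM under the control diet and at 11.9, 13.6 and 11.0 TPM under resveratrol (log2 fold change -0.11, SE 0.15, unadjusted p = 0.508). These are the negative members of the class.

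The bifunctional enzymes were close to 0. EHHADH (ENSSSCG00000040296.1) stood at 11.7, 19.4 and 16.6 TPM under the control diet and at 11.6, 15.2 and 18.6 TPM under resveratrol, with a log2 fold change of 0.05 (SE 0.23). HSD17B4 (ENSSSCG00000028431.2), which handles branched and very long chains, measured 121, 198 and 180 TPM against 144, 147 and 198 TPM, with a log2 fold change of 0.09 (SE 0.24). Its lowest value was control 1, and control 2 and resveratrol 3 shared the highest. HSD17B4 was the more abundant of the pair in every library, the ratio of EHHADH to HSD17B4 staying between 0.0807 and 0.104.

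ACAA1 (ENSSSCG00000011250.3) stood at 554, 496 and 565 TPM under the control diet and at 561, 728 and 755 TPM under resveratrol. Of the resveratrol libraries, resveratrol 1 lay among the controls, and the log2 fold change was 0.42 (SE 0.23, unadjusted p = 0.0921). CROT, which makes carnitine esters of shortened chains for export, measured 14.3, 19.6 and 16.8 TPM against 17.3, 18.4 and 22.4 TPM (log2 fold change 0.32, SE 0.18, unadjusted p = 0.102). DECR2, the peroxisomal dienoyl-CoA reductase, measured 19.5, 23.8 and 29.6 TPM against 26.0, 31.8 and 29.6 TPM (log2 fold change 0.34, SE 0.20, unadjusted p = 0.115). ECI2, an enoyl-CoA isomerase, ranged from 32.3 TPM in control 1 to 67.6 TPM in control 3, a span that held all resveratrol values. Without control 1 the median of the class was -0.08 and 3 of its 8 members were positive.

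The spiral and peroxisomal genes were set side by side within each library. The mean log2(CPM + 1) of the spiral genes exceeded that of the peroxisomal genes by 0.37, 0.19 and 0.21 in control 1, 2 and 3 and by 0.44, 0.44 and 0.39 in resveratrol 1, 2 and 3. The groups did not overlap, the nearest libraries being control 1 and resveratrol 3. The difference between the diets was 0.17, and it stayed between 0.13 and 0.22 with each library left out. A difference within a library does not depend on its scaling, apart from the added 1, and it was 0.17 on log2(TPM + 0.5) as well. It is a description of chosen genes and has no test.

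Of the genes that control the pathway, PPARA (ENSSSCG00000000006.3), the nuclear receptor that many of these genes answer to in liver, stood at 11.5, 16.2 and 14.9 TPM under the control diet and at 13.5, 14.3 and 12.3 TPM under resveratrol. Control libraries were both the lowest and the highest, and the log2 fold change was 0.00 (SE 0.16, unadjusted p = 0.982). PDK4 (ENSSSCG00000015334.4), the kinase that inactivates pyruvate dehydrogenase when fatty acids are burned, stood at 344, 660 and 494 TPM under the control diet and at 477, 465 and 738 TPM under resveratrol. Its spread within each diet exceeded the difference of the means, and the log2 fold change was 0.29 (SE 0.27, unadjusted p = 0.307). Without resveratrol 3 it was -0.01.

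Neighbouring steps were read from 6 further lists and from OXCT1. None of these genes passed the adjusted threshold in edgeR. Their counts stand beside 48.8% positive and 2.21% higher at an unadjusted p under 0.05 among all tested rows. Of 13 tested genes that activate or bind fatty acids, 8 were positive and 5 negative with a median of 0.09, and 0 had an unadjusted p under 0.05. The 2 smallest p-values there belonged to ACSL3, an acyl-CoA synthetase (8.32 ± 1.82 against 6.21 ± 0.573 TPM), and SLC27A4, a fatty acid transport protein (7.46 ± 2.17 against 9.50 ± 0.896 TPM). Malonyl-CoA blocks CPT1, and of the genes that make or remove it ACACA averaged 88.4 ± 44.3 against 67.1 ± 19.0 TPM and MLYCD 4.11 ± 0.480 against 4.08 ± 0.762 TPM.

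OXCT1, which lets cells spend ketone bodies, averaged 231 ± 38.7 against 262 ± 27.3 TPM (log2 fold change 0.28, SE 0.19, unadjusted p = 0.179). Genes of PPAR signalling were 9 positive and 6 negative of 15, with a median of 0.00. PLIN2, a lipid droplet coat protein, averaged 121 ± 13.4 against 162 ± 27.4 TPM (log2 fold change 0.51, unadjusted p = 0.0369), and ESRRA, a receptor of mitochondrial gene programs, 19.0 ± 2.65 against 24.4 ± 5.35 TPM (0.44, 0.0673). The coactivator PPARGC1A had only 5 to 25 reads in a library and was not tested.

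Genes that build peroxisomes or serve them were 14 positive and 5 negative of 19, with a median of 0.18 and 0 at an unadjusted p under 0.05. PEX11A, which divides peroxisomes, averaged 20.7 ± 7.76 against 29.9 ± 8.48 TPM, and PHYH, the phytanoyl-CoA hydroxylase, 151 ± 26.7 against 182 ± 41.3 TPM. Genes at the ends of odd and branched chains were 4 positive and 2 negative of 6, with a median of 0.28. The 2 of 6 with an unadjusted p under 0.05, against 2.21% of all rows, were MCEE, the methylmalonyl-CoA epimerase (76.8 ± 13.4 against 102 ± 17.7 TPM, unadjusted p = 0.0365), and IVD, the isovaleryl-CoA dehydrogenase (91.6 ± 20.4 against 120 ± 17.7 TPM, unadjusted p = 0.0388). Pyruvate dehydrogenase and its kinases and phosphatases, the target of PDK4, were 5 positive and 4 negative of 9 with a median of 0.01. Among them PDK2 averaged 22.6 ± 4.84 against 18.4 ± 1.70 TPM, and PDP1 8.55 ± 1.47 against 8.92 ± 1.31 TPM.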

How the data were processed

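The authors deposited, per the file headers, for every library a table with the read count (whole numbers) and the TPM of each row, and a series table of TPM for 14777 rows whose values equalled those of the library tables. The submitters' processing notes name Bowtie 0.12.2 and 2 mouse builds (mm8, mm9). Which build, annotation, counter and strand setting lie behind the pig rows is not given in the sources used here. RNA was extracted with Trizol, per the labels' protocols. Symbols were paired with Ensembl identifiers for 14750 of 22844 rows; no coordinates or sequences are printed.

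The 14908 rows averaging 0.5 TPM or more were tested in edgeR 4.0.16 (R 4.3.3) with TMM scaling and the robust quasi-likelihood test, 3 against 3 libraries, and p-values were adjusted by Benjamini-Hochberg over all of them; the tests were tried on simulated data. Each SE was obtained as the absolute log2 fold change over the root of the F statistic. Groups come from the sample titles. Alternatives used DESeq2 1.42.0, limma 3.58.1 on log2 TPM with pseudocounts of 0.5, 1 and 0.1, other filters and scalings, a replicate block and left-out libraries. Against TMM-scaled counts, TPM lay lower in resveratrol (median log2 difference -0.079 in limma on log2(TPM + 0.5), and a higher resveratrol mean in 35.4% of rows). The members, classes and lists were chosen with earlier results of these data known. Values in every library are given for the members with the smallest p in each class and for 13 fixed members, and of each neighbouring list the members with the smallest p are named, except that part of the ketone body list is not reported here; further names were chosen after their values were seen.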

Additional observations from a re-analysis of the deposited data

How the results depend on the processing

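The fewest reads of a member in a library were 252. No member passed an adjusted p under 0.05 in any of 17 alternatives, and 17 of 306 fold changes of 18 named members changed sign, not counting PPARA, which was at 0.00 and ranged from -0.09 to 0.10. Over all rows, DESeq2 called 40 genes and edgeR with 1 library left out 0 to 4 (4 without control 2). The 3 members higher at an unadjusted p under 0.05 became 6 in DESeq2 (2.36% of all rows), 6 with the replicate block (3.00%), 6 without a filter (2.03%), 8 with library totals alone (4.06%), 1 in limma on log2 TPM with each pseudocount (1.31% to 1.32%), and 1 to 9 with 1 library left out (1 without resveratrol 3, 1.21%, and 9 without control 3, 4.29%); those lower went from 0 to between 0 and 1 (1 without control 3, 6.93%). The cause was not tested. With libraries left out, the peroxisomal median ranged from -0.08 (without control 1) to 0.29 and was -0.02 without resveratrol 3, and 3 to 7 of its 8 members were positive. Relative to the adipocyte markers, the medians were 0.05 for all members, -0.23 for the carnitine shuttle, 0.10 for the spiral, -0.12 for the peroxisomal genes (3 positive) and -0.10 for PPARA and PDK4. On log2 TPM with pseudocounts of 0.5, 1 and 0.1, ACADVL was at -0.07, -0.06 and -0.07, EHHADH at -0.06 in each, and HSD17B4 at -0.01 in each; 24 of 33 members were positive. With libraries left out, ACADVL ranged from -0.10 to 0.20, EHHADH from -0.18 to 0.23, HSD17B4 from -0.13 to 0.21 and PDK4 from -0.01 to 0.44. The replicate numbers are not said to pair animals. Deviations from the group means correlated at 0.157, 0.0741 and 0.20 between libraries of number 1, 2 and 3, and each library correlated best with its own number. With the replicate block the median of the members was 0.30.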
